A study of Mus musculus with 12 samples.

Results

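The protein-coding mouse genes named Zfp with a number of 600 or more and below 1000, with or without a letter, were followed through RNA immunoprecipitation sequencing (RIP-seq) of the 3 YTHDF proteins. They were taken by name from the gene list that accompanies the YTHDF1 data, which held 167 such genes among 13438 protein-coding genes. All 167 were found in the count table of 55573 genes and all passed the filter on low counts. A further 15 protein-coding genes with names in this range were counted but not listed, and none of them had more than 119 counts over the 12 libraries. Apart from being listed, which left out genes with few counts, no measured value entered the choice of the 167 genes.

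Primary hippocampal neurons of newborn C57BL/6 mice were grown for 14 days, with tissue of all pups of a litter pooled and both sexes mixed. All cultures received Ara-C, which limits the growth of dividing glial cells, and no genotype beyond the strain is given for any group. Endogenous YTHDF1, YTHDF2 or YTHDF3 was pulled down with its own antibody from cell lysate, with no crosslinking step named, and the RNA on the beads was sequenced beside total RNA of the lysate. The groups were Input (no antibody), YTHDF1 RIP, YTHDF2 RIP and YTHDF3 RIP, each with 3 replicates. No library from an unspecific antibody was analysed here, so a level in a RIP library can be read only against Input or against another RIP.

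Most Zfp genes encode C2H2 zinc finger proteins, in which short repeated units fold around a zinc ion and read a few bases of DNA each. The units are joined by a linker peptide of nearly constant sequence, TGEKP in its consensus form. Many of these genes lie in clusters that arose by tandem duplication, and many carry at their front a KRAB box, a repressor domain that recruits Trim28 and histone-modifying enzymes to silence transposable elements. YTHDF proteins bind mRNA that carries N6-methyladenosine (m6A), which in mRNA is found mainly within the DRACH consensus, near stop codons and in long exons. In that consensus the first base is A, G or T, the second A or G, then A and C, and the last A, C or T.

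The coding sequence of the 167 genes was concentrated in the last exon. The median share of coding sequence in the last exon was 86.5%, against 11.4% over all protein-coding genes tested, and 127 of the 167 genes had at least 75% of it there. Their last exon had a median length of 2494 bases, against 1345 bases for protein-coding genes, while the whole transcript was of similar length (medians of 3152 and 3094 bases). The median number of fingers found by pattern was 11 per protein, with up to 33, and 10 genes had no finger that fitted the pattern. A KRAB box was found in 119 of the 167 proteins.

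The first finger unit with its linker is shown for 6 genes on which the results turn, because the repeat of this unit is what the family shares. Each is the sense strand of the coding sequence in GRCm38, with DRACH matches on that strand in capitals. Those of Zfp738, Zfp871, Zfp960, Zfp933 and Zfp932 lie in the last of 4 exons, and that of Zfp668, which has no KRAB box, in exon 2 of 3.
Zfp738, chr13:67671175-67671258, minus strand: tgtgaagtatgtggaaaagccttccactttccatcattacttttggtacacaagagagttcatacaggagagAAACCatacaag
Zfp871, chr17:32775450-32775533, minus strand: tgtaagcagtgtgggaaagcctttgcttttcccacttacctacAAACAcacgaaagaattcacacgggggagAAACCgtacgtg
Zfp960, chr17:17087503-17087586, plus strand: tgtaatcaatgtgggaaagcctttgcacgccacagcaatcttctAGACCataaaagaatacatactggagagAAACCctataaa
Zfp933, chr4:147826658-147826741, minus strand: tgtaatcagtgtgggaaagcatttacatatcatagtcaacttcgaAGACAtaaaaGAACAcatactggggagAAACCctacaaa
Zfp932, chr5:110008837-110008920, plus strand: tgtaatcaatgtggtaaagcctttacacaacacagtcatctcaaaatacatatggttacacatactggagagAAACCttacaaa
Zfp668, chr7:127868064-127868147, minus strand: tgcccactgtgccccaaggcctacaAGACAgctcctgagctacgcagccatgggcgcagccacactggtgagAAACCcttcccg

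In all 6 units the linker codons held a DRACH match, spelled AAACC in each. The pattern found 809 linkers in 136 of the 167 genes, and 598 of them (73.9%) held a match, against 21.1% of in-frame coding windows of the same 15 bases over protein-coding genes. For the whole unit of 84 bases the shares were close, 86.5% of 1769 finger units against 82.1% of coding windows of that length. The 3 commonest of 125 distinct linker sequences are shown because they are the most frequent, with 15.7%, 13.6% and 10.9% of all linkers, and 1 further because it lacks the match.
Commonest linker, 127 copies in 24 genes: acaggagagAAACCt
Next linker, 110 copies in 39 genes: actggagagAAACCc
Following linker, 88 copies in 23 genes: acaggagagAAACCc
Linker without the match, 34 copies in 21 genes: actggagagaagccc
Matches in linkers were still a small part of all matches, 8.42% of the 7100 in the coding sequences of the 167 genes. Per kilobase of coding sequence the genes held a median of 23.1 DRACH matches, against 20.6 for protein-coding genes, with 24.4 in genes with a KRAB box and 17.8 in those without. The narrower form GGAC was less frequent per kilobase of transcript, with medians of 2.41 in the 167 genes and 4.20 in protein-coding genes. These counts describe sequence only, since methylation was not measured in these libraries.

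Library totals ran from 6020072 to 38909592 counts, and replicates of a group had rank correlations across genes of 0.937 to 0.983. All 7 neuronal markers, such as Map2 and Tubb3, were measured well above the filter, and all 4 astrocyte markers were present too. The summed astrocyte level per kilobase of exon ranged from 42.9 to 453 in Input, 41.8 to 215 in YTHDF1 RIP, 96.1 to 249 in YTHDF2 RIP and 31.0 to 262 in YTHDF3 RIP. The summed neuronal level was 427 to 598 in Input, 436 to 726, 238 to 339 and 341 to 616 in the YTHDF1, YTHDF2 and YTHDF3 RIPs, so that it was lower in every YTHDF2 RIP library than in every Input library. Mog, the 3 microglial and the 2 endothelial markers were below the filter, with at most 15 counts in a library, and Mbp, like Mog an oligodendrocyte marker, averaged 1.3 per kilobase in Input. The part of cell mixture in the results was not tested. By the methods of the study, the lysate of a replicate was split among the 3 RIPs and they shared its input. The RIPs and Input of a replicate thus come from the same cells by design. The library numbers may not show this for each RIP. In their deviations from group means, YTHDF1 and YTHDF2 RIP replicate 2 correlated with Input replicate 3 at 0.466 and 0.556. With Input replicate 2 the values were -0.265 and -0.321. Between replicates, fewer cells of a type and less RNA per cell cannot be told apart in bulk RNA.

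In Input the genes were expressed at low level, with a median of 2.49 normalized CPM per kilobase of exon (CPM are counts scaled to a fixed library size), against 3.95 for protein-coding genes. Zfp706 had the highest level per kilobase, 26.9 ± 2.05 (SD, n = 3), followed by Zfp704 with 14.5 ± 2.18, Zfp993 with 11.1 ± 1.05, Zfp608 with 10.1 ± 0.709 and Zfp991 with 9.97 ± 0.794. Zfp993, Zfp608 and Zfp991 did not differ beyond their spread, and Zfp706 stood apart from the rest. Zfp831, Zfp953 and Zfp773 had the lowest levels, 0.117 ± 0.0779, 0.161 ± 0.0989 and 0.185 ± 0.0537, which do not differ beyond their spread. The values of Zfp993 and Zfp991 are uncertain, because 86.8% and 82.2% of their 50-base words also occur in other genes and reads with several alignments were counted for each of them.

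The summed level of the 167 genes was higher in every RIP library than in every Input library. In normalized CPM, with library sizes scaled by TMM factors, it was 2725, 2720 and 2683 in the 3 Input libraries. YTHDF1 RIP gave 7867, 12230 and 8433, the YTHDF2 RIP 3855, 4049 and 3670, and the YTHDF3 RIP 4496, 4216 and 4434. The TMM factors were 0.869, 0.699 and 0.705 for YTHDF1 RIP and 1.15, 1.27 and 1.36 for YTHDF3 RIP. A smaller factor raises the normalized level, so the size of the gap between these RIPs depends on the scaling. On this scale the YTHDF1 RIP libraries were the highest, and replicate 2 stood apart from the other 2. Much of that came from Zfp871 and Zfp738, which made up 25.4% to 50.6% of the sum in YTHDF1 RIP and at most 9.07% in any other library. Without this pair, singled out after its values were seen, the YTHDF1 RIP libraries gave 5867, 6040 and 6131 on the same scale. The means were then 2588 ± 11.4 in Input, 6013 ± 134 in YTHDF1 RIP, 3535 ± 201 in YTHDF2 RIP and 4171 ± 147 in YTHDF3 RIP (SD, n = 3). In these means without the pair, the order of YTHDF1 and YTHDF3 RIP itself depends on the TMM factors.

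**Figure D1:**
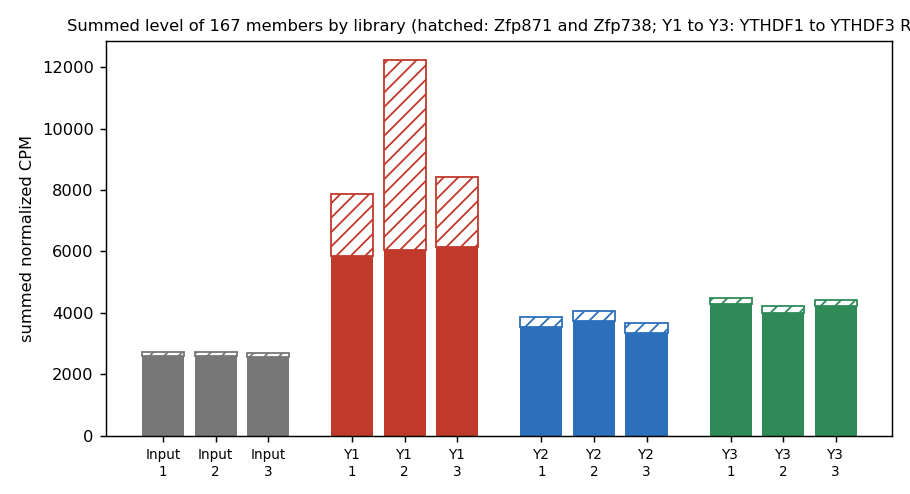
Summed normalized CPM of the 167 genes in each library of Input and of the YTHDF1 to YTHDF3 RIPs (Y1 to Y3), with the part from Zfp871 and Zfp738 hatched. The 3 YTHDF1 RIP libraries reach 7867, 12230 and 8433, and replicate 2 stands apart through the hatched part.

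The threshold against Input was a log2 fold change of at least 0.32 in either direction with an adjusted p of at most 0.05. The adjusted p came from edgeR's quasi-likelihood test with Benjamini-Hochberg adjustment over 17284 genes. YTHDF1 RIP had the most zinc finger genes past the threshold, and also the most of all genes tested. With library size alone YTHDF3 RIP had more zinc finger genes past it, as given below. In the YTHDF1 RIP 94 of the 167 genes (56.3%) were higher than in Input, where 27.1% of all genes tested were, and 7 (4.19%) were lower, where 25.5% of all genes were. The median log2 fold change was 0.73, beside 0.02 over all genes and 0.13 over protein-coding genes. Scaling changed the balance: with library size alone 60 genes were higher and 21 lower, beside 17.8% and 36.2% of all genes, whose median was then at -0.39. With TMM factors from protein-coding genes 72 were higher and 15 lower, beside 21.2% and 32.1% of all genes.

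In the YTHDF2 RIP 45 genes (26.9%) were higher and 7 (4.19%) were lower, beside 15.6% and 18.9% of all genes tested, and the median log2 fold change was 0.21. The count of 45 became 24 (14.4%, beside 12.9% of all genes) once the trend of each library with exonic length was removed. It was 19 (11.4%, beside 4.58% of all genes) with no filter on low counts. A fit of these 2 groups with the replicate number as a block gave 29 of 161 genes, beside 13.0% of all genes. Without Input replicate 1 the count was 29 (17.4%, beside 11.1% of all genes). The share of all genes thus fell in these settings too. In the YTHDF3 RIP 55 genes (32.9%) were higher and 4 (2.40%) lower, beside 16.3% and 22.9% of all genes tested, with a median of 0.49. Same-numbered YTHDF3 RIP and Input libraries deviated together, and with the replicate number as a block in a fit of these 2 groups the YTHDF3 counts were 113 and 9, beside 36.2% and 32.3% of all genes tested. Library size alone gave 96 higher and 3 lower for YTHDF3, beside 27.9% and 17.6%. All 3 comparisons share the Input libraries and are not independent of each other.

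The zinc finger genes with lower numbers gave counts in the same directions. Of the 203 protein-coding Zfp genes with lower numbers, 115 (56.7%) were higher and 15 lower in YTHDF1 RIP (median log2 fold change 0.80). In YTHDF2 RIP 56 (27.6%) were higher and 17 lower (0.34), and in YTHDF3 RIP 69 (34.0%) and 12 (0.41). Of all genes tested 27.1%, 15.6% and 16.3% were higher and 25.5%, 18.9% and 22.9% lower. The 2 sets were not tested against each other. In the 117 genes with at most 10% of their 50-base words in other genes, 59.0% were higher than Input in YTHDF1 RIP, 30.8% in YTHDF2 RIP and 35.9% in YTHDF3 RIP.

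Genes with and without a KRAB box differed more in YTHDF2 RIP than in YTHDF1 RIP, as a description without a test. Of the 119 genes with the box, 65 (54.6%) were higher and 4 lower in YTHDF1 RIP. In YTHDF2 RIP 24 (20.2%) were higher and 5 lower, and in YTHDF3 RIP 32 (26.9%) and 1. Their median log2 fold changes were 0.69, 0.11 and 0.44. Of the 48 without it, 29 (60.4%) were higher and 3 lower in YTHDF1 RIP. In YTHDF2 RIP 21 (43.8%) were higher and 2 lower, and in YTHDF3 RIP 23 (47.9%) and 3. Their medians were 0.90, 0.56 and 0.62. Of all genes tested 27.1%, 15.6% and 16.3% were higher and 25.5%, 18.9% and 22.9% lower in these RIPs. Of protein-coding genes 17.6% were higher in YTHDF2 RIP. The 2 classes also differ in base composition, with a median G and C content of the transcript of 40.3% with and 51.8% without the box. They differ in length too, with a median transcript of 2950 bases with and 4305.5 bases without it. The part of base composition or of length in the difference was not tested.

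**Figure D2:**
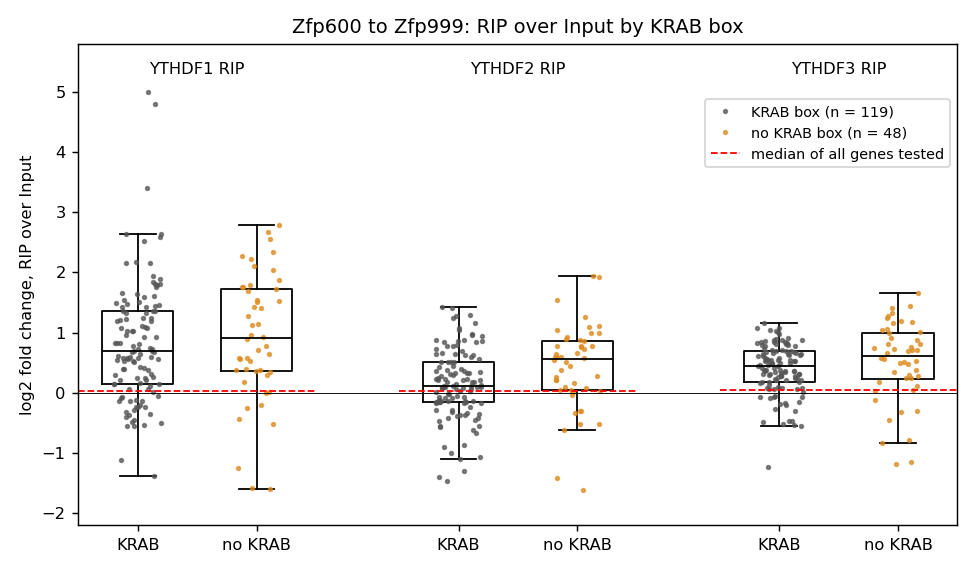
Log2 fold change of RIP over Input for each of the 167 genes (points), split by KRAB box, with boxes for the quartiles, whiskers to the last point within 1.5 interquartile ranges and a dashed line at the median of all genes tested. The median with the box lies at 0.69, 0.11 and 0.44 for YTHDF1, YTHDF2 and YTHDF3, and without it at 0.90, 0.56 and 0.62.

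The 2 largest increases in YTHDF1 RIP were in KRAB genes with very long last exons. Zfp738, on chromosome 13 (67658685 to 67687071, minus strand), ends in an exon of 12927 bases. It had 31.1, 31.7 and 29.3 normalized CPM in Input and 689, 1601 and 645 in YTHDF1 RIP. In the YTHDF2 RIP it had 78.0, 77.7 and 88.7, and in YTHDF3 RIP 71.7, 63.3 and 58.3. Every RIP library lay above every Input library, and the YTHDF1 libraries lay far above the rest. The log2 fold changes over Input were 4.99 (SE 0.35, adjusted p 2.95e-06) for YTHDF1, 1.41 (SE 0.31, adjusted p 0.00479) for YTHDF2 and 1.07 (SE 0.30, adjusted p 0.0154) for YTHDF3. Without YTHDF1 RIP replicate 2 the first was 4.37, and with the length trend removed the YTHDF3 value was 0.37 and missed the threshold.

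Zfp871, on chromosome 17 (32765496 to 32788287, minus strand), has a last exon of 10513 bases and showed the same order. Its normalized CPM was 96.1, 96.5 and 78.2 for Input, 1311, 4585 and 1657 for YTHDF1, 247, 233 and 244 for YTHDF2, and 147, 149 and 142 for YTHDF3. The log2 fold change over Input was 4.80 (SE 0.44, adjusted p 1.06e-05) for YTHDF1, 3.97 without YTHDF1 RIP replicate 2, and 1.42 (SE 0.38, adjusted p 0.0142) for YTHDF2, where the length trend removed gave 1.01 (adjusted p 0.0572 by edgeR). For YTHDF3 it was 0.69 (SE 0.38, adjusted p 0.168), which missed the threshold although the groups did not overlap. Zfp729a, a neighbour of Zfp738 with a last exon of 9087 bases, had 22.1, 22.1 and 19.0 in Input and 99.2, 173 and 122 in YTHDF1 RIP, a log2 fold change of 2.64 (SE 0.21, adjusted p 5.36e-06).

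Zfp960 and Zfp800 were higher in YTHDF1 RIP without passing the threshold in either other RIP. Zfp960, a KRAB gene on chromosome 17 (17064113 to 17089628, plus strand), had 4.41, 5.63 and 6.63 normalized CPM in Input and 65.3, 64.9 and 45.6 in YTHDF1 RIP, but 3.45, 4.46 and 4.12 in YTHDF2 RIP and 6.57, 6.88 and 7.27 in YTHDF3 RIP. Its log2 fold change for YTHDF1 was 3.4 (SE 0.22, adjusted p 2.08e-06), with 82.7% of its words shared, mostly with Zfp97. Zfp800, without a KRAB box and with 0.28% of words shared, had 12.8, 12.9 and 13.8 in Input and 60.7, 107 and 85.1 in YTHDF1 RIP, a log2 fold change of 2.68 (SE 0.22, adjusted p 6.3e-06). Its YTHDF2 values of 12.5, 11.8 and 15.9 overlapped Input, with a log2 fold change of 0.03 (SE 0.21).

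Of the 16 genes chosen for a known role, 12 were higher than Input in 2 or 3 RIPs, and 7 were with the length trend removed. The share of all genes called in 2 or 3 RIPs was not computed, so these counts do not set the 16 genes apart. Zfp609, a partner of Nipbl and the Integrator complex in cortical neuron migration, had 75.1, 79.7 and 88.4 in Input, 252, 178 and 218 in YTHDF1 RIP, 106, 93.3 and 96.8 in YTHDF2 RIP and 156, 165 and 162 in YTHDF3 RIP. It rose in YTHDF1 RIP by a log2 fold change of 1.41 (SE 0.17) and in YTHDF3 RIP by 0.99 (SE 0.16), while its value for YTHDF2 was 0.28 (SE 0.16, adjusted p 0.2 by edgeR). Its relative Zfp608 had 92.3, 80.4 and 84.8 in Input and rose in all 3, to 405, 317 and 382, to 165, 172 and 174, and to 237, 230 and 234. The fold changes of Zfp608 were 2.10, 0.99 and 1.44 on the log2 scale, and its YTHDF3 value was the highest of the 167 genes past the threshold there.

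Zfp804a, whose human ortholog lies at a schizophrenia risk locus, had 25.8, 14.6 and 16.9 in Input and 68.1, 91.3 and 117 in YTHDF1 RIP, a log2 fold change of 2.27 (SE 0.35, adjusted p 0.000278). In the YTHDF3 RIP it had 69.7, 43.7 and 39.0, a log2 fold change of 1.41 (SE 0.34, adjusted p 0.00667), and in YTHDF2 RIP its 25.6, 18.3 and 39.4 overlapped Input. Zfp704, the second highest gene per kilobase, had 210, 194 and 258 in Input against 571, 692 and 650, 367, 570 and 270, and 531, 474 and 660 in the 3 RIPs in order. All its RIP libraries exceeded all Input libraries, by log2 fold changes of 1.53, 0.87 and 1.33. With the length trend removed these were 0.25, 0.41 and 0.63, and none passed the threshold (adjusted p 0.514, 0.323 and 0.129 by edgeR). Zfp770 rose in all 3 too, by 1.52, 0.75 and 1.28 on that scale, with its YTHDF2 call lost in the same setting at 0.47.

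The remaining genes with known roles can be given together. Zfp638, an RNA-binding protein of the silencing of unintegrated DNA by the HUSH complex, rose by 1.76, 0.73 and 1.15 on the log2 scale in the YTHDF1, YTHDF2 and YTHDF3 RIPs. Zfp687, of the ZMYND8 chromatin complex, rose by 1.51, 1.11 and 1.18, Zfp652, a partner of the corepressor CBFA2T3, by 1.87, 0.60 and 0.81, and Zfp618, a partner of UHRF2, by 2.34, 1.26 and 0.91. Zfp827, which recruits the NuRD complex, rose by 2.05, 0.86 and 1.19. Zfp644, which works with the histone methyltransferases G9a and GLP, rose by 1.27, 0.45 and 1.01, and its YTHDF2 call held in only 6 of 23 alternative analyses. Each of these 6 genes passed the threshold in each RIP, but several calls were lost with the length trend removed. Zfp644 then passed in no RIP, with log2 values of 0.09, -0.01 and 0.35. Zfp638 and Zfp652 then passed in YTHDF1 RIP alone, at 0.46 and 0.58, while Zfp618 missed the threshold for YTHDF3 at 0.43 and Zfp827 for YTHDF2 at 0.52. Zfp687 kept its call in each RIP in all 23 alternatives. Over all named genes, 5 of 30 calls against Input were lost in this setting for YTHDF1, 9 of 22 for YTHDF2 and 10 of 23 for YTHDF3.

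Not every gene of this kind passed in all RIPs. Zfp668, a DNA repair factor, rose by 1.72 in YTHDF1 RIP and 0.66 in YTHDF3 RIP, and Zfp830 by 0.95 and 0.76, while their log2 values for YTHDF2 were 0.15 and 0.22. The YTHDF3 value of Zfp668 was 0.33 with the length trend removed and missed the threshold. Zfp711, whose human ortholog is mutated in X-linked intellectual disability, had log2 values of 0.01, 0.02 and 0.34 (SE 0.22, 0.23 and 0.22), and its levels overlapped those in Input in every RIP except for YTHDF3. There it had 30.7, 25.0 and 23.7 normalized CPM against 22.4, 19.8 and 20.4 in Input. Zfp703 had log2 values of 0.57, -0.04 and 0.17, none past the threshold. Zfp831, the lowest gene per kilobase, had a log2 value of 2.79 for YTHDF1 with an SE of 1.08, from 1.29, 1.83 and 0.321 in Input and 7.60, 1.58 and 15.2 in YTHDF1 RIP, and its call there held in 8 of 23 alternatives.

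Genes that fell against Input were few, with Zfp706 and Zfp771 among them in each RIP. Zfp706, a small protein with 1 finger known from stem cell self-renewal, had 143, 123 and 136 normalized CPM in Input. It had 31.6, 56.3 and 44.8 in YTHDF1 RIP, 46.6, 39.6 and 43.9 in YTHDF2 RIP, and 67.8, 57 and 50.9 in YTHDF3 RIP. Each RIP library lay below each Input library, with log2 fold changes of -1.60 (SE 0.21, adjusted p 0.000103), -1.63 (SE 0.21, adjusted p 0.000404) and -1.19 (SE 0.21, adjusted p 0.000952). The gene with the highest Input level per kilobase was thus among the most depleted in all 3.

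Zfp771 fell likewise, with log2 fold changes of -1.58, -1.41 and -1.15, from 15.5, 11.7 and 11 in Input to between 3.54 and 7.46 in the 9 RIP libraries. With the length trend removed its YTHDF3 value was -0.61 and missed the threshold. Its transcript has a G and C content of 68.7%. Zfp931 fell in YTHDF1 and YTHDF3 RIP with log2 fold changes of -1.39 and -1.24, as did Zfp637 with -1.25 and -0.78, and Zfp938 fell in YTHDF1 RIP with -1.12. The YTHDF3 call of Zfp637 held in 15 of 23 alternatives. In the YTHDF2 RIP, Zfp947 fell with a log2 fold change of -1.47 and Zfp984 with -1.41, as did Zfp809, which binds the primer binding site of proviral DNA and recruits Trim28, with -1.11 (SE 0.37, adjusted p 0.0355 by edgeR). The call of Zfp809 held in 15 of 23 alternatives, and its log2 value for YTHDF1 was 0.73 (adjusted p 0.0978).

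**Figure D3:**
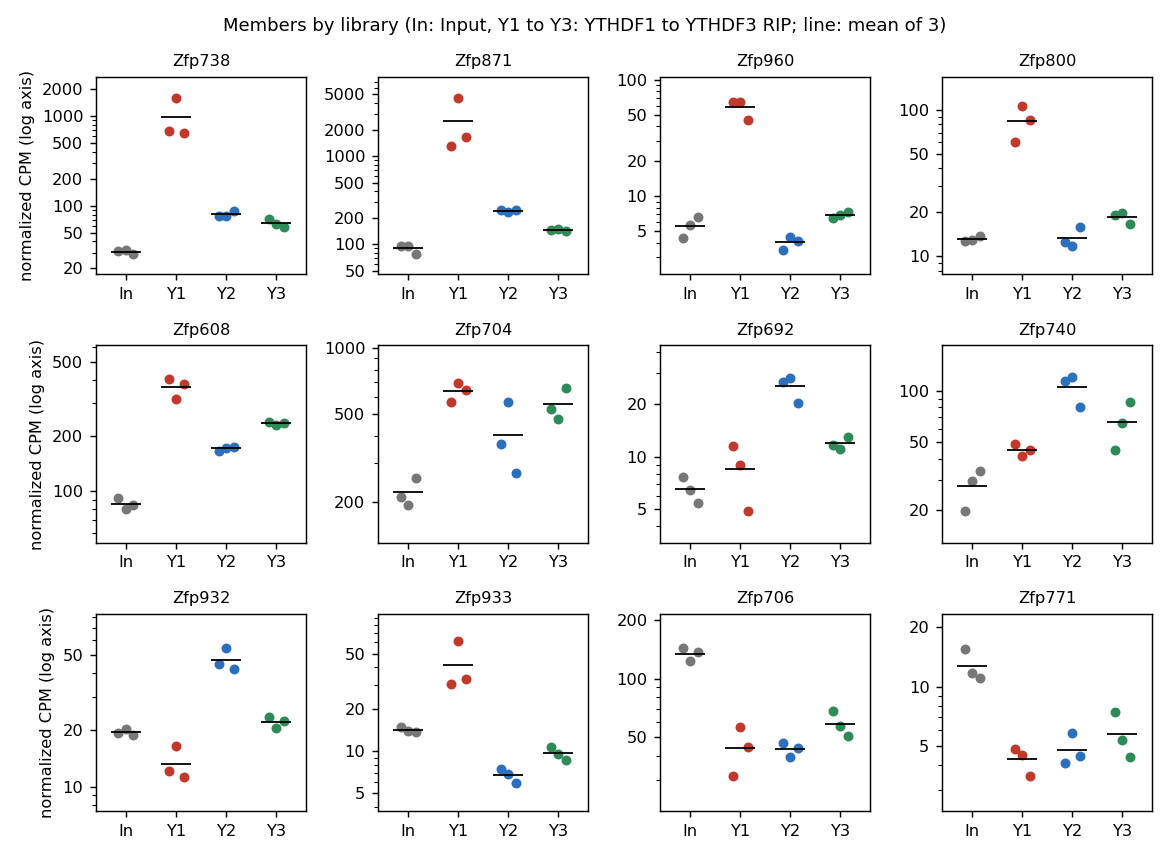
Normalized CPM on a log axis of 12 named genes in each library (points; In is Input and Y1 to Y3 are the YTHDF1 to YTHDF3 RIPs), with the mean of 3 replicates as a line. Zfp738 and Zfp871 stand highest in YTHDF1 RIP, Zfp692 and Zfp740 in YTHDF2 RIP, and Zfp706 and Zfp771 are lower in every RIP library than in Input.

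The 2 largest increases in YTHDF2 RIP were in Zfp692 and Zfp740, which have no KRAB box and 3 fingers each. Zfp692, a factor regulated by AMP-activated kinase, had 7.68, 6.44 and 5.46 in Input, 27.0, 28.4 and 20.4 in YTHDF2 RIP, 11.5, 9.03 and 4.93 in YTHDF1 RIP and 11.7, 11.1 and 13.0 in YTHDF3 RIP. Its log2 fold change was 1.95 (SE 0.29, adjusted p 0.000657) for YTHDF2 and 0.87 (SE 0.28, adjusted p 0.0284) for YTHDF3, and the YTHDF1 libraries overlapped Input. Zfp740 had 19.6, 29.4 and 34.0 in Input and 114, 121 and 80.0 in YTHDF2 RIP, a log2 fold change of 1.93 (SE 0.28, adjusted p 0.000604). For YTHDF1 and YTHDF3 its values were 0.70 (adjusted p 0.0466 by edgeR, held in 5 of 23 alternatives) and 1.24. Zfp781, the KRAB gene next in order after Zfp871 and Zfp738, rose by 1.29 in YTHDF2 RIP and 2.17 in YTHDF1 RIP, with 96.3% of its words shared with other genes.

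Zfp932 and Zfp933 were past the threshold in opposite directions in 2 RIPs. Zfp932, which has been tied to the control of endogenous retroviruses, had 19.4, 20.3 and 18.7 in Input, 12.1, 16.4 and 11.3 in YTHDF1 RIP, 44.6, 54.8 and 42.1 in YTHDF2 RIP, and 23.5, 20.5 and 22.2 in YTHDF3 RIP. It fell in YTHDF1 RIP with a log2 fold change of -0.55 (SE 0.18, adjusted p 0.0236, held in 16 of 23 alternatives) and rose in YTHDF2 RIP with 1.28 (SE 0.18, adjusted p 0.000569). Of its words 42.0% were shared, mostly with Gm15446. Zfp933, with 1.05% shared, showed the reverse: 15, 13.9 and 13.7 in Input, 30.2, 61.3 and 32.6 in YTHDF1 RIP, 7.44, 6.85 and 5.91 in YTHDF2 RIP, and 10.7, 9.62 and 8.69 in YTHDF3 RIP. Its log2 fold changes were 1.54 (SE 0.26, adjusted p 0.000438) for YTHDF1 and -1.08 (SE 0.26, adjusted p 0.00877) for YTHDF2.

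The RIPs were next compared with each other, with a stricter 2-fold limit on the change and the same limit on the adjusted p. Between YTHDF1 and YTHDF2, 52 of the 167 genes (31.1%) were higher in YTHDF1 RIP and 5 (2.99%) lower, beside 11.4% and 6.07% of all genes tested. With library size alone the counts were 24 and 16, beside 6.14% and 16.4% of all genes, and with TMM factors from protein-coding genes 44 and 7, beside 9.23% and 8.14%. The largest differences were in Zfp960 with a log2 difference of 3.87 (SE 0.23, adjusted p 9.66e-06), Zfp738 with 3.59 (SE 0.33, adjusted p 3.53e-05) and Zfp871 with 3.38 (SE 0.41, adjusted p 0.000161). The 5 genes lower in YTHDF1 RIP were Zfp932 at -1.83, Zfp692 at -1.59, Zfp740 at -1.22, Zfp956 at -1.03 and Zfp931 at -1.02, the last 2 named because the count is small.

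Between YTHDF1 and YTHDF3, 24 genes (14.4%) were higher and 1 (0.599%) lower in YTHDF1 RIP, beside 10.8% and 3.62% of all genes tested, but with library size alone the direction turned to 10 higher and 32 lower, beside 4.39% and 20.2% of all genes, where the median of all genes moved from 0.19 to -0.54. In a fit of these 2 groups with the replicate block 6 were higher and 0 lower, beside 1.84% and 0.612% of all genes. Zfp871 (log2 difference 4.11, 3.22 without YTHDF1 RIP replicate 2), Zfp738 (3.92) and Zfp960 (3.08) again had the largest differences. Zfp612 was the gene lower in YTHDF1 RIP, with 7.83, 7.38 and 15.6 against 25.0, 20.1 and 19.6 in YTHDF3 RIP, a log2 difference of -1.06 (SE 0.28, adjusted p 0.0183). Between YTHDF2 and YTHDF3, 2 genes (1.2%) were higher in YTHDF2 RIP, Zfp932 by 1.096 (SE 0.18, adjusted p 0.00798) and Zfp692 by 1.08 (SE 0.28, adjusted p 0.0382), and 0 were lower, beside 3.93% and 1.16% of all genes tested. At an unadjusted p under 0.05 and with no limit on the fold change, edgeR gave 12 genes (7.19%) higher and 42 (25.1%) lower, beside 15.5% and 9.49% of all genes. By DESeq2 with both limits the counts were 2 (1.2%) and 3 (1.8%), beside 5.65% and 2.03% of all genes. With library size alone they were 0 and 14 (8.38%), beside 2.83% and 4.16%. The call of Zfp692 held in 8 of 23 alternatives.

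The length of the last exon went with the level in the RIPs. Genes were split into 3 classes at 2093 and 3217 bases. In the YTHDF1 RIP 43 of the 56 genes with the longest last exons (76.8%) were higher than Input and 1 lower, with a median log2 fold change of 1.43. Among the 56 with the shortest, 25 (44.6%) were higher and 6 lower, with a median of 0.41. The middle 55 gave 26 (47.3%) and 0 with a median of 0.57. Of all genes tested 27.1% were higher and 25.5% lower. For YTHDF2 the medians from shortest to longest were 0.22, -0.05 and 0.48, and for YTHDF3 0.30, 0.37 and 0.71. Only the YTHDF1 and YTHDF3 medians increased over all 3 classes.

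Across the 167 genes, Spearman's rho between last exon length and log2 fold change was 0.402 for YTHDF1, 0.177 for YTHDF2 and 0.316 for YTHDF3. Coding length gave 0.544, 0.329 and 0.559, and the number of DRACH matches in the transcript 0.504, 0.223 and 0.467. The number of DRACH matches per kilobase gave -0.091, -0.258 and -0.066. The number of matches and the length move together. The relation to density went in opposite directions in the 2 classes of genes, at 0.558, 0.324 and 0.635 over the 48 genes without a KRAB box and -0.292, -0.344 and -0.274 over the 119 with it. These are descriptions across genes that share libraries, reads and ancestry. Protein-coding genes as a whole also showed the relation to length, with rho for the last exon of 0.355, 0.112 and 0.302 and for coding length of 0.617, 0.577 and 0.674.

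**Figure D4:**
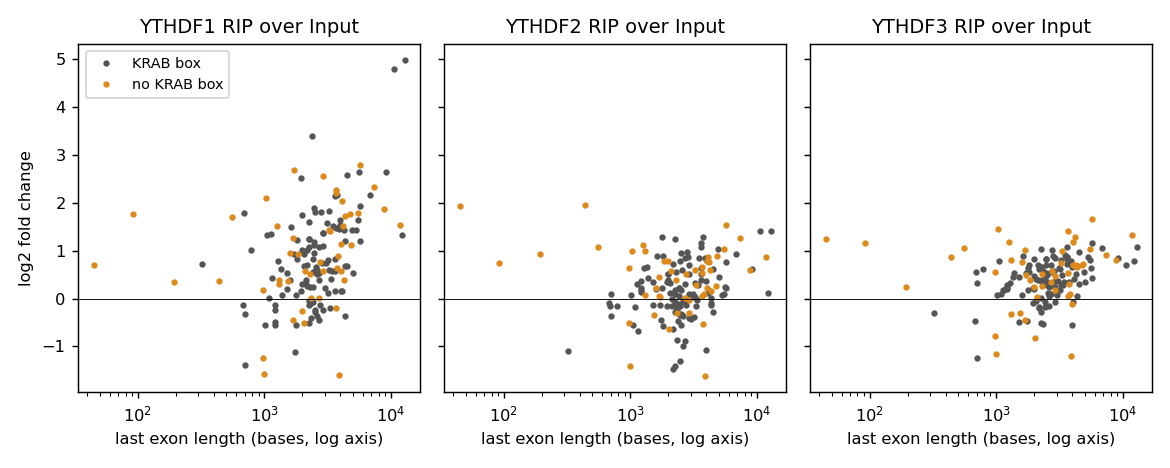
Log2 fold change of RIP over Input against the length of the last exon in bases (log axis) for the 167 genes, with KRAB genes in grey and others in orange. In the YTHDF1 panel the rho is 0.402 and the 2 highest points are Zfp738 and Zfp871, with last exons of 12927 and 10513 bases; the rho is 0.177 for YTHDF2 and 0.316 for YTHDF3.

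The G and C content of the transcript had a rho of -0.067 for YTHDF1, 0.385 for YTHDF2 and 0.093 for YTHDF3 across the 167 genes. Against the difference between YTHDF1 and YTHDF2 it had a rho of -0.351, and against that between YTHDF2 and YTHDF3 0.426. Over protein-coding genes the 3 comparisons with Input gave -0.08, 0.148 and -0.024. The Input level had a rho of at most 0.087 with any of the 3. The number of fingers gave 0.191, 0.041 and 0.149. The 100 genes with at least 10 fingers were called higher 63, 23 and 34 times in the YTHDF1, YTHDF2 and YTHDF3 RIPs, with medians of 0.90, 0.18 and 0.51. The 22 genes with up to 4 fingers had 15 (68.2%), 10 (45.5%) and 10 (45.5%) such calls and medians of 0.98, 0.62 and 0.58. The 45 genes with 5 to 9 had 16 (35.6%), 12 (26.7%) and 11 (24.4%) and medians of 0.39, 0.06 and 0.32. Of all genes tested 27.1%, 15.6% and 16.3% were called higher. Within the 119 genes with a KRAB box the rho for the number of fingers was 0.347, 0.172 and 0.339, and within the 48 without it -0.083, 0.046 and -0.091.

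Of the 167 genes, 98 lay in 17 chromosome clusters, each of at least 3 genes with gaps of at most 500 kb. They gave 57 (58.2%) higher and 2 lower in YTHDF1 RIP with a median log2 fold change of 0.82. The 69 others gave 37 (53.6%) and 5 with a median of 0.65. Of all genes tested 27.1%, 15.6% and 16.3% were higher in YTHDF1, YTHDF2 and YTHDF3 RIP, and 25.5%, 18.9% and 22.9% lower. The counts of single clusters below are to be read beside these shares. Clusters differed among themselves. The 8 genes at chr17:32765496-33307241, where Zfp871 lies, had 7 higher in YTHDF1 RIP (median 1.62), 2 in YTHDF2 RIP (0.17) and 6 in YTHDF3 RIP (0.65), and none lower. In that cluster Zfp799 rose by 2.64 in YTHDF1 RIP (SE 0.27, adjusted p 2.05e-05 by edgeR), from 25.0, 27.6 and 20 normalized CPM in Input to 105, 218 and 129. Zfp799 is named here after its values were seen.

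The 12 genes at chr4:145510759-147848366 had 7 higher in YTHDF1 RIP, with a median of 1.05, while in YTHDF2 RIP 0 were higher and 2 lower, with a median of -0.56 (0 and 3 at an unadjusted p under 0.05 by edgeR, beside 21.3% and 23.6% of all genes). Directly compared, 9 of the 12 were higher in YTHDF1 RIP than in YTHDF2 RIP, beside 11.4% of all genes tested, with a median difference of 1.34. Of these 12 genes 7 share more than 50% of their words with other genes, so that their values are not independent, while Zfp933 shares 1.05%. The 10 genes at chr13:67038596-67687071, with Zfp738 and Zfp729a, had 6 higher in YTHDF1 RIP (median 1.12) and 3 in each other RIP (0.22 and 0.45). The 14 genes at chr17:21383748-22867134 had 6, 1 and 5 higher, with medians of 0.42, -0.15 and 0.37.

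Not all clusters held called genes. The 4 genes at chr2:175372436-175931100 (Zfp965, Zfp966, Zfp968 and Zfp969) had no call in any RIP by edgeR, with 0 also at an unadjusted p under 0.05, and medians of -0.47, 0.20 and 0.29. With Zfp967, Zfp970, Zfp971 and Zfp973, also on chromosome 2, they make 8 genes that share 49.5% to 100% of their words and had log2 values from -0.56 to 0.07 for YTHDF1, with Zfp973 alone past the threshold at -0.56 (adjusted p 0.034 by edgeR).

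**Figure D5:**
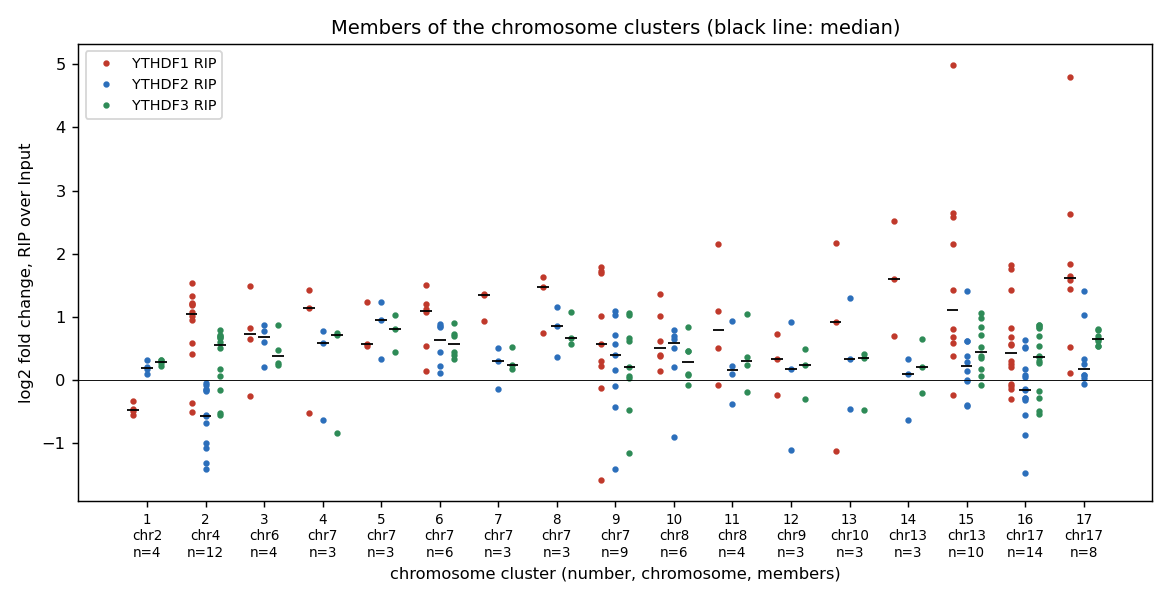
Log2 fold change of RIP over Input of the genes in 17 chromosome clusters, ordered by chromosome, with YTHDF1 in red, YTHDF2 in blue, YTHDF3 in green and the median as a black line. In cluster 2 on chromosome 4 the YTHDF1 median is 1.05 and the YTHDF2 median -0.56, and in cluster 17 on chromosome 17 they are 1.62 and 0.17.

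The partners through which KRAB proteins silence chromatin were read from a list of 19 genes, of which 18 were found and tested. The list also holds Zfp57, itself a KRAB protein, which is 1 of those higher in YTHDF3 RIP below. In the YTHDF1 RIP 8 (44.4%) were higher and 3 (16.7%) lower, beside 27.1% and 25.5% of all genes. In YTHDF2 RIP 6 (33.3%) were higher and 1 (5.56%) lower, beside 15.6% and 18.9%, and in YTHDF3 RIP 7 (38.9%) and 1, beside 16.3% and 22.9%, with median log2 fold changes of 0.47, 0.47 and 0.36. On the log2 scale Morc2a, of the HUSH pathway, rose by 1.77, 1.52 and 1.19, Setdb1, a histone H3 lysine methyltransferase, by 1.50, 1.13 and 1.03, the DNA methyltransferase Dnmt1 by 1.92, 1.29 and 0.90, and the NuRD ATPase Chd4 by 1.82, 1.02 and 1.00. Trim28, the corepressor that KRAB boxes bind, had 0.57 (adjusted p 0.0731 by edgeR), 0.57 and 0.13, none past the threshold. Pphln1, of the HUSH complex, fell in all 3, with log2 fold changes of -0.82, -1.29 and -1.35, and the heterochromatin protein gene Cbx3 and the deacetylase gene Hdac1 fell in YTHDF1 RIP with -0.97 and -0.68.

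Zfp57, the KRAB protein that protects imprinted methylation and is not one of the 167, was lowest in YTHDF1 RIP. It rose in YTHDF3 RIP with a log2 fold change of 1.50 (SE 0.35, adjusted p 0.00525), from 37.7, 30.7 and 43.1 normalized CPM in Input to 102, 83.2 and 131. It was lower in the YTHDF1 than in the YTHDF2 and YTHDF3 RIPs, by log2 differences of -1.499 and -2.07, and its own value against Input for YTHDF1 was -0.56 (adjusted p 0.192 by edgeR).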

How the data were processed

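The authors deposited raw counts per gene of 12 stranded total RNA libraries, made with UMI-tools 1.1.1, cutadapt 3.4, STAR 2.7.7a (mm10, the same assembly as GRCm38) and featureCounts 2.0.1, per the file headers with Ensembl 97 genes and strand setting 2. Duplicates had been removed by molecular identifier. Reads with several alignments, or over several genes, were counted for each gene, so counts of near-identical zinc finger genes are inflated and not independent. The authors' tables of log2 fold changes, p-values, a signal (mean scaled count) and a test score from DESeq2 with independent hypothesis weighting served only for gene names and biotypes.

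Genes with a mean of at least 10 counts, after scaling to the mean library size, were kept (17284). TMM factors (0.699 to 1.36) were computed on them, and all 12 libraries entered 1 quasi-likelihood fit of 4 groups in edgeR 4.0.16 (R 4.3.3), with a biological coefficient of variation of 0.324 and a prior count of 2 for log2 fold changes. The call rules follow the methods of the study. The fits were tested on simulated data. The p-values measure the spread between replicate lysates, each pooled from several wells of neurons. Whether the replicates came from different litters is not stated for these libraries. Greater depth lowers counting error only.

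Exons, coding sequences and protein features came from GENCODE vM21 (Ensembl 96), with translated coding sequences in place of RefSeq proteins. KRAB boxes were found with HMMER 3.4 (E-value limit 1e-05), fingers and linkers by pattern in Python 3.11.15. Shared words are 50-base stretches of the exonic sequence also present in another gene.

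The genes, lists and naming rule were chosen with earlier results of these data known. Named were 16 genes with known roles, for each RIP the 5 highest and 5 lowest called genes with no overlap between groups, for each pair of RIPs the 3 largest differences in each direction, the 5 highest and 3 lowest Input levels, and genes called in opposite directions. Deviations from the group means of same-numbered libraries correlated at 0.826, 0.521 and 0.801 between YTHDF3 RIP and Input, though each replicate's lysate served all 3 RIPs, and in every other pair of groups at least 1 correlation was below 0.1. The block is therefore given beside the YTHDF3 result. Fits of YTHDF1 or YTHDF2 RIP with the block, against Input or YTHDF3 RIP, rest on numbers that may not mark the same lysate. Alternatives were DESeq2 1.42.0, other scalings and filters, the replicate block, removal of each library's length trend (loess span 0.3), fits of 2 groups, and each library left out in turn.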

Additional observations from a re-analysis of the deposited data

Results flagged for a closer look

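Zfp932 and Zfp933 were called in opposite directions against Input in the YTHDF1 and YTHDF2 RIPs, and in both the direct comparison of the RIPs passed the threshold. For Zfp932 the log2 difference of YTHDF1 RIP from YTHDF2 RIP was -1.83 (SE 0.19, adjusted p 6.15e-05 by edgeR), with every YTHDF1 RIP library below every YTHDF2 RIP library. For Zfp933 it was 2.62 (SE 0.27, adjusted p 6.66e-05 by edgeR), with every YTHDF1 RIP library above every YTHDF2 RIP library. No explanation of either was tested.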

How the results depend on the processing

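Counts of the 167 genes past the threshold are given as higher and lower in the first-named group. The share of all genes called also moved with the setting, so a moved count alone is not particular to these genes. Of 276 counts under alternatives, 209 stayed within 1.5 times the value in the report and 67 did not, and the causes were not tested except where the scaling or the number of libraries is itself the change. For YTHDF1 RIP against Input, library size alone gave 60 and 21, protein-coding TMM 15 lower, the length trend removed 11 lower with or without the block, and 2 groups with the replicate block 55 higher. For YTHDF2 RIP against Input, no filter gave 19 higher, the length trend removed 24, with the block as well 23, and 2 groups with the block 29. For YTHDF3 RIP against Input, library size alone gave 96 higher and 2 groups with the block 113 and 9, where the pairing of the libraries was seen in the data. For YTHDF1 against YTHDF2, library size alone gave 24 and 16, and no filter 3 lower. For YTHDF1 against YTHDF3, library size alone gave 10 and 32, 2 groups with the block 6 and 0, 2 groups without it 3 lower, and DESeq2 size factors, protein-coding TMM, DESeq2, no filter, a minimum mean of 50, and the length trend removed with or without the block 2 lower each. For YTHDF2 against YTHDF3, library size alone gave 0 and 14, no filter 0 and 15, protein-coding TMM 1 and 1, the length trend removed 0 and 4 with or without the block, 2 groups 0 and 1, 2 groups with the block 0 higher, DESeq2 3 lower, and DESeq2 size factors and a minimum mean of 50 1 lower each. The replicate block in the fit of 4 groups gave 89 and 6, 42 and 5, 57 and 4, 50 and 5, 23 and 1, and 2 and 0 over the 6 comparisons in this order, none beyond 1.5 times.

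With 1 library left out in turn, the counts ranged over 75 to 90 and 5 to 11 for YTHDF1 against Input, 29 to 49 and 4 to 10 for YTHDF2 against Input, 43 to 70 and 3 to 5 for YTHDF3 against Input, 42 to 52 and 4 to 9 for YTHDF1 against YTHDF2, 17 to 27 and 0 to 5 for YTHDF1 against YTHDF3, and 0 to 2 and 0 to 2 for YTHDF2 against YTHDF3. Without YTHDF1 RIP replicate 3, 11 genes were lower in YTHDF1 RIP than in Input, and 9 and 5 lower than in the YTHDF2 and YTHDF3 RIPs. Without Input replicate 1, 29 were higher in YTHDF2 RIP and 4 lower, and without YTHDF2 RIP replicate 3, 4 were lower. For named genes, 5025 of 5362 alternative values kept direction and side of the threshold, 260 lost it, 75 gained it and 2 turned sign, both for Zfp644 in the YTHDF2 RIP, at -0.01 with the length trend removed and -0.0 with the block as well.

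Low levels, such as those of Zfp831 and Zfp947, allow wide intervals only, and libraries of 6020072 to 38909592 counts differ in how well they measure them. For Zfp831 the YTHDF1 RIP libraries also differed widely among themselves. Genes sharing words with others cannot be separated here.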
